A study of Mus musculus with 2 samples.

Results

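The fibroblast growth factor (FGF) genes examined here were 32 listed members, taken by gene symbol from 29453 gene columns of the spliced and unspliced count matrices: 22 ligands, 4 receptors, and 6 genes that act as feedback inhibitors or transcriptional targets of the pathway. All 32 were present. FGF ligands bind receptor tyrosine kinases on neighbouring cells together with heparan sulphate and activate the Ras-ERK cascade, which switches on the Etv4 and Etv5 transcription factors as well as the Sprouty and Dusp6 inhibitors that dampen the same cascade. In the mouse embryo at the start of organogenesis the pathway is known for tail bud elongation and somite formation, for patterning of the neural tube, ear and pharynx and for growth of the heart field.

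Cells came from 6 chimeric embryos that were pooled and sorted into a tdTom+ and a tdTom- fraction, with 1 droplet-based library each. The tdTom+ cells descend from 1 embryonic stem cell clone with a 38 base-pair frameshift deletion in exon 4 of Gata1, the X-linked transcription factor required for red cell maturation, made in a male line from a ROSA26tdTomato male and a C57BL/6 female. The tdTom- cells are the wildtype host, from C57BL/6 blastocysts injected at E3.5, so both fractions developed within the same embryos. The age field of the labels gives E8.5 for tdTom+ and E8.6 for tdTom-, although both sample titles read E8.5 and the fractions were sorted from the same pooled embryos. Clone, library, sex and strain background therefore cannot be told apart from the loss of Gata1, and no test between the fractions is possible.

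The libraries held 8981 tdTom+ and 9252 tdTom- cell barcodes with 167940767 and 157174026 spliced unique molecular identifiers (UMIs), and medians of 17598 and 15996 per cell, with 18 barcodes in both. After removal of called doublets and 1 cluster made mostly of them, 8589 and 8723 cells were kept. Gata1 (chromosome X, 7959260 to 7978071, GRCm38) stood at 6.73 CPM (UMI counts of a gene scaled to a total of 1e6 over the cells summed) in tdTom+ and 29.3 in tdTom- over all deposited barcodes, and at 27.0 and 131 CPM in blood; UMIs come from transcript ends, so they do not show the small deletion itself. Xist was at 3.32 and 278 CPM over all barcodes. Levels are given in CPM of spliced UMIs, and differences are log2 of tdTom+ over tdTom- with an exact 95% interval in brackets that covers counting error only. A difference was called at 2-fold or more with an interval on 1 side of 0 and at least 20 UMIs over both fractions. UMIs are counted once per transcript, but end-capture differs between genes, so levels were compared within a gene across cells.

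Across all cells, 18 members held 500 or more spliced UMIs, 7 held 50 or more but fewer than 500, and 7 held fewer. Fgf8, which drives tail bud and heart field growth, held 8664 and 10464 UMIs (tdTom+ first), and Fgfr1, the main receptor of embryonic mesoderm and neural tube, 7673 and 7652. At the other end Fgf21, an endocrine ligand of liver, held 4 and 1, and Fgf20, a ligand of the developing ear and kidney, 7 and 6. Fgf1, Fgf6, Fgf7, Fgf16 and Fgf23 held between 3 and 20 UMIs in either fraction. The sparse members are described by their counts and their leading class.

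Several ligands were highest in tail bud mesoderm, in the same classes in both fractions. Cells were grouped into classes from their counts with all members left out, and named "X-like" from fixed markers; 20 classes had at least 50 cells in each fraction. Fgf4, a ligand that acts with Fgf8 in the tail mesoderm, was highest in presomitic mesoderm-like cells at 23.8 CPM in tdTom+ and 23.5 in tdTom-, followed by surface ectoderm-like cells at 6.44 and 6.15. Fgf9, known from lung and gonad, was at 31.2 and 30.9 CPM in presomitic mesoderm-like cells, again ahead of surface ectoderm-like cells at 10.6 and 9.67. Fgf18, known from skeletal growth, was at 48.7 CPM in tdTom+ and 73.4 in tdTom- presomitic mesoderm-like cells, and fell to 17.7 and 22.3 in somitic mesoderm-like cells.

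Fgf8 was found in more classes. It was highest in midgut and hindgut endoderm-like cells, at 241 CPM in tdTom+ and 346 in tdTom-, and reached 205 and 275 CPM in NMP (neuromesodermal progenitor) and caudal epiblast-like cells. That class pools cluster 10 (420 tdTom+ and 500 tdTom- cells), with 7 of 7 markers raised, and cluster 19 (478 and 528). Cluster 19, led by Hoxd1, Cdx4 and Osr1, had 4 of 7 raised, without T and Wnt3a, so the name fits it less well. The cluster led by Lefty2 and Igfbpl1 held 206 and 147 CPM, and presomitic mesoderm-like cells 182 and 194. Fgf17, a close relative of Fgf8, was led by 3 of these classes, at 91.1 and 93.5 CPM in presomitic mesoderm-like, 80.5 and 95.8 in NMP and caudal epiblast-like, and 70.2 and 82.8 in gut endoderm-like cells, and the leading pair changed places between the fractions, with overlapping intervals in tdTom-. Fgf3, a ligand needed for the inner ear and tail, was at 63.8 and 58.9 CPM in presomitic mesoderm-like cells and at 25.6 and 36.0 in spinal cord-like cells. Fgf15, which feeds back on bile acid synthesis in the adult and is a neural gene in the embryo, led in spinal cord-like cells at 99.2 and 97.0 CPM, ahead of forebrain and midbrain-like cells at 42.4 and 37.3.

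Fgf10, the ligand of limb and lung buds, was spread more evenly outside blood. In tdTom- it was at 17.3 CPM in NMP and caudal epiblast-like cells, 17.1 in pharyngeal and cranial mesoderm-like cells and 16.8 in the cluster led by Lhx1 and Arg1, which do not differ beyond counting error. Whether clusters 10 and 19 of the NMP and caudal epiblast-like class differed in Fgf10 was not tested. In tdTom+ its highest class outside blood was the cluster led by Lefty2 and Igfbpl1, at 21.1 CPM. Fgf13, a member of the intracellular branch that binds sodium channels and is not a receptor ligand, led in the cluster led by Tac2 and Wnt6 at 35.9 and 31.6 CPM, with cardiomyocyte-like cells next at 22.1 and 26.6. Of the sparse ligands, Fgf5 was highest in forebrain and midbrain-like cells in tdTom+ (3.16 CPM) and in surface ectoderm-like cells in tdTom- (3.62 CPM). The leading classes of Fgf2 were midgut and hindgut endoderm-like cells in tdTom+ (1.65 CPM) and pharyngeal foregut endoderm-like cells in tdTom- (1.91 CPM). Fgf11 led at 2.24 CPM in tdTom+ pharyngeal foregut endoderm-like and 2.18 in tdTom- extraembryonic visceral endoderm-like cells, and Fgf12 at 1.83 CPM in forebrain and midbrain-like and 2.15 in spinal cord-like cells. Fgf22 led at 1.04 CPM in the tdTom+ cluster led by Tac2 and Wnt6 and at 1.33 in the tdTom- cluster led by Lefty2 and Igfbpl1. It held 79 and 64 UMIs over all classes, and its median over the 20 shared classes was 0.60 and 0.35 CPM. The Spearman correlation of its levels between the fractions was -0.13. The leading classes of these sparse ligands rest on few UMIs.

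Fgfr1 and Fgfr2 were found in many classes, Fgfr3 and Fgfr4 in few. Fgfr1 passed 10 CPM in 21 classes in tdTom+ and 23 in tdTom-, with its highest levels in spinal cord-like cells (98.9 and 92.9 CPM) and forebrain and midbrain-like cells (92.3 and 92.4 CPM). Fgfr2, the receptor of epithelia and of the placental ectoderm, also led in spinal cord-like cells, at 48.8 and 54.6 CPM, with amnion and extraembryonic mesenchyme-like cells at 38.6 and 50.9. Fgfr3, known for restraining bone growth, led in extraembryonic classes. It stood at 22.0 CPM in allantois-like cells of tdTom+ and 34.6 in tdTom-, and at 21.3 and 26.3 in amnion and extraembryonic mesenchyme-like cells. The allantois-like cells of the fractions fell into different clusters, 24 for tdTom+ and 26 for tdTom-. Fgfr4, the receptor of liver and gut endoderm, led among shared classes in midgut and hindgut endoderm-like cells at 19.2 and 10.7 CPM, and reached 19.6 CPM in the tdTom- extraembryonic visceral endoderm-like cells, a class that tdTom+ hardly held (8 cells against 62).

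Etv4, an ETS factor switched on by the pathway, was highest in NMP and caudal epiblast-like cells at 115 CPM in tdTom+ and 121 in tdTom-, then in presomitic mesoderm-like cells (76.8 and 78.5 CPM) and midgut and hindgut endoderm-like cells (68.0 and 89.5 CPM). Etv5, a close relative, was highest among shared classes in midgut and hindgut endoderm-like cells at 35.6 and 32.4 CPM, with pharyngeal foregut endoderm-like cells at 34.2 and 30.9, within each other's intervals. Its highest tdTom- level, 36.3 CPM, was in extraembryonic visceral endoderm-like cells, where the secreted ligands summed to 13.8 CPM and the feedback and target genes to 139. Spry4, a Sprouty inhibitor, led in presomitic mesoderm-like cells at 24.8 and 25.1 CPM. Spry2 was flatter, with 19.8 and 15.3 CPM in its leading class, the cluster led by Lefty2 and Igfbpl1. Dusp6, the phosphatase that switches ERK off, was also high in endothelial-like cells, at 68.8 CPM in tdTom+ and 57.9 in tdTom-, where the secreted ligands summed to 19.5 and 18.9 CPM.

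**Figure D1:**
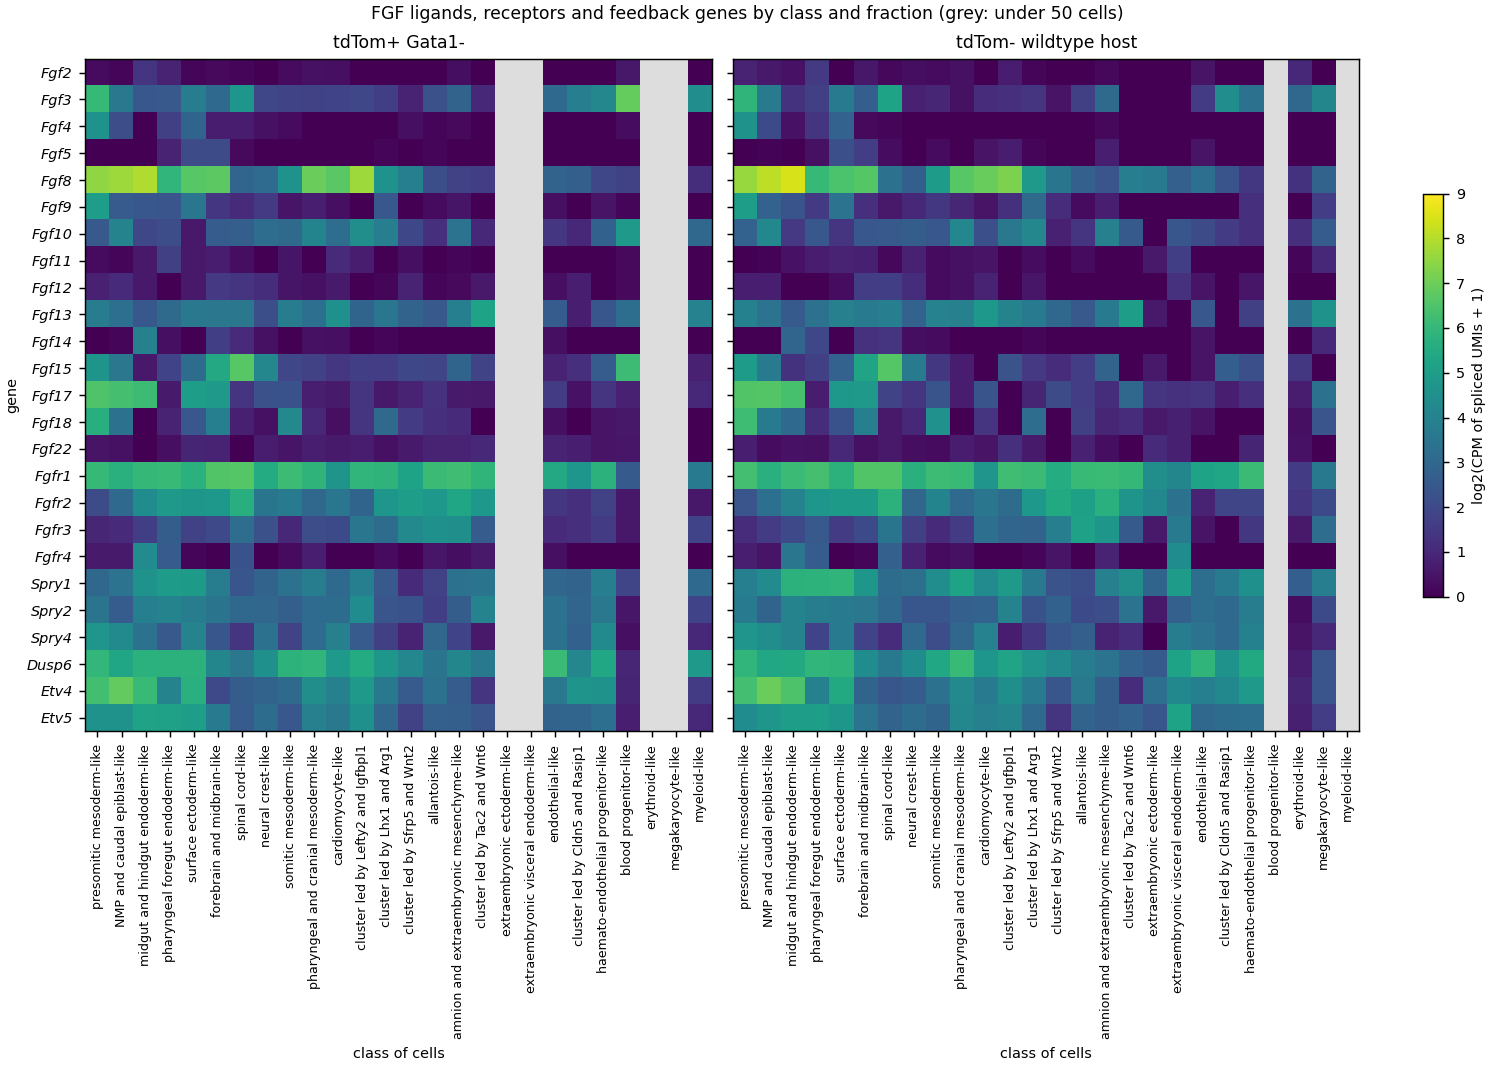
Levels of the 25 members with at least 50 spliced UMIs in each class of cells, as log2(CPM + 1), with 1 panel per fraction and classes in the same order; grey columns held under 50 cells. Rows are to be read along a gene: Fgf4, Fgf9 and Fgf18 peak in presomitic mesoderm-like cells of both fractions, Fgfr1 runs through nearly all classes, and Fgf3, Fgf15 and Fgf10 are bright in the tdTom+ blood progenitor-like column, which has no counterpart in tdTom-.

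With a rule that a gene is restricted when the same shared class leads in both fractions at 4 times the median class or more with 1 CPM added to both, 8 of 18 members with at least 200 UMIs in each fraction were restricted, against 12.3% of all genes tested. They were Fgf3, Fgf4, Fgf9 and Fgf18 in presomitic mesoderm-like cells, Fgf8 in midgut and hindgut endoderm-like, Fgf15 in spinal cord-like, Fgfr3 in allantois-like, and Etv4 in NMP and caudal epiblast-like cells. The shared classes hold no blood, and in tdTom+ Fgf3 was at 116 CPM in blood progenitor-like cells against 63.8 in presomitic mesoderm-like cells. Nor does the rule require a gene to be absent elsewhere, since Fgf8 passed 10 CPM in 12 classes of tdTom+ and 14 of tdTom-. The set changed with the settings. After thinning to 5000 UMIs, where 15 members kept enough UMIs, it held Fgf3, Fgf8, Fgf10, Fgf15 and Etv4, without Fgf4, Fgf9, Fgf18 and Fgfr3. A member under 200 UMIs in a fraction after thinning was left untested. Fgf4 (280 and 254 UMIs before thinning) and Fgf9 (470 and 515) started nearest to that minimum, so their absence need not be a loss of restriction. At a lower clustering resolution Fgf3 and Fgfr3 were not in the set. The leading class was the same in both fractions for 14 of the 18. In tdTom+ the 18 secreted ligands, which leave out the intracellular Fgf11 to Fgf14, and the 6 feedback and target genes summed to 471 and 204 CPM in presomitic mesoderm-like cells, and to 15.4 and 36.6 CPM in allantois-like cells. Over the 20 shared classes the Pearson correlation of these sums was 0.76 in tdTom+ and 0.77 in tdTom-, and the Spearman correlation 0.68 and 0.60. Some classes did not pair the sums in this way. In tdTom+, endothelial-like cells held 19.5 CPM of ligands beside 112 of feedback genes, haemato-endothelial progenitor-like cells 35.4 beside 116, and spinal cord-like cells 141 beside 34.2. For single genes, the Pearson correlation of Etv4 with the ligand sum was 0.81 in tdTom+ and 0.88 in tdTom- and the Spearman correlation 0.60 and 0.53. For Dusp6 the Pearson values were 0.42 and 0.37 and the Spearman values 0.43 and 0.36. The Pearson values of Spry1, Spry2, Spry4 and Etv5 were 0.26, 0.30, 0.60 and 0.68 in tdTom+. In tdTom- they were 0.32, 0.44, 0.69 and 0.68. The lowest Spearman value of the 6 genes was that of Spry4 in tdTom-, 0.24. The classes of a fraction share 1 library, and the values are a description.

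Between the fractions, cells outside blood differed little in their FGF genes. This comparison was added after the data had been seen. Of 28 members with enough UMIs, none was called higher and 2, Fgf2 and Spry1, were called lower outside blood, against 3.7% of all genes in either direction. Over all kept cells 3 of 28 were called, Fgf3 higher and Fgf2 and Spry1 lower, against 5.72% of all genes. Fgf2, with 34 and 64 UMIs, was not called with unspliced UMIs added (-0.82) or over all deposited barcodes (-0.99). Outside blood, Spry1 was not called with a median of ratios scaling (-0.98), and Fgf2 was not called with unspliced UMIs added. The median over members outside blood was -0.15, and over all genes -0.05. Fgf8 was at 71.8 CPM in tdTom+ and 91.7 in tdTom- outside blood, a log2 of -0.35 [-0.39 to -0.31] that stayed under 2-fold, and Fgf18 at 6.24 and 9.46 CPM, -0.60 [-0.74 to -0.47]. Dusp6, Spry2 and Spry4 lay at 0.02 [-0.05 to 0.08], -0.01 [-0.14 to 0.13] and 0.04 [-0.09 to 0.17].

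Within classes, 17 of 272 pairs of a member and a class were called, 13 lower and 4 higher, against 2.25% of all gene and class pairs, and Spry1 alone accounted for 8. After thinning to 5000 UMIs 5 of 183 were called against 2.30%, so the members' share then lay near that of all pairs. With free RNA subtracted 21 of 245 were called against 22.7%. That subtraction took the lower of the blood progenitor-like and cardiomyocyte-like levels from tdTom+. From tdTom- it took the lower of the erythroid-like and cardiomyocyte-like levels. The profile removed thus differed between the fractions, and its 22.7% cannot serve as a background for the members. The 4 higher pairs were Fgf3 in endothelial-like cells, Spry4 in amnion and extraembryonic mesenchyme-like, Fgf10 in cardiomyocyte-like and Fgf14 in midgut and hindgut endoderm-like cells. Each rested on few UMIs: 26 in tdTom+ and 5 in tdTom- for Fgf3 in endothelial-like cells (1.87 [0.47 to 3.61]), and 30 and 6 for Spry4 (1.58 [0.29 to 3.13]). Apart from Spry1 the lower pairs were Fgf10 in surface ectoderm-like cells (6 and 14 UMIs, -1.52 [-3.19 to -0.05]), Fgf13 in the cluster led by Lefty2 and Igfbpl1 (21 and 23, -1.23 [-2.16 to -0.31]), Fgfr3 in cardiomyocyte-like cells (11 and 22, -1.54 [-2.73 to -0.44]), and Fgf18 and Etv4. Fgf10 was thus called in opposite directions in different classes. Fgf18 held 0 UMIs in tdTom+ and 20 in tdTom- midgut and hindgut endoderm-like cells. With a floor of 3 counts over the tdTom+ cells, that is at least 4.47-fold lower. Etv4 in forebrain and midbrain-like cells was at 2.99 and 6.41 CPM, -1.10 [-1.92 to -0.35], where the cluster led by En1 held 173 of the tdTom+ and 293 of the tdTom- cells, and the cluster led by Lhx2 172 and 458.

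Spry1, the Sprouty inhibitor of receptor signalling in kidney and other epithelia, was lower in tdTom+ in every class tested, 19 of 19, and called in 8 of them. With free RNA subtracted it was lower in 16 of 18. Among all genes, 52 of 9895 (0.526%) were lower in every class tested, of 10 or more, and called in 5 or more. The genes beside Spry1 described below were not left out of this share, and the rule was not among the planned comparisons. Outside blood it was at 10.4 CPM in tdTom+ and 21.2 in tdTom-, -1.02 [-1.12 to -0.92]. The class differences ranged from -1.49 in pharyngeal and cranial mesoderm-like cells (12.9 and 36.1 CPM) to -0.31 in endothelial-like cells (6.79 and 8.44 CPM), with a median of -0.99. In its highest tdTom- class, surface ectoderm-like, Spry1 was at 28.9 and 57.7 CPM, -0.997 [-1.20 to -0.79], just under the 2-fold line. Its order across classes was kept, with a Spearman correlation of 0.98 between the fractions over 20 classes, while Spry2 and Spry4 lay near 0 outside blood.

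The genes beside Spry1 on chromosome 3 were lower as well. Spry1 (37639947 to 37644598, GRCm38) and Fgf2 (37348346 to 37410108), the basic FGF of endothelium and stem cell culture, lie in a run of 43 consecutive genes with at least 100 UMIs outside blood, from Zmat3 to D3Ertd751e (32334792 to 41803320, 9.47 Mb), that were all lower in tdTom+. Fgf2 itself is not among the 43, since it held only 18 and 37 UMIs outside blood (-1.11 [-2.01 to -0.26]). The median of the run was -1.01 and its range -1.75 to -0.44, whereas the genes on its flanks, Cldn11 and Pcdh10, lay at 0.10 and 0.15. The next longest runs in the genome at the same threshold, -0.40, held 6 and 5 genes, and the median of all chromosome 3 genes was -0.04. The run also holds the neural and stem cell factor Sox2 (-1.37), the kinase subunit Pik3ca (-0.97) and the cyclin Ccna2 (-0.79).

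In each of the 20 shared classes the median of the run was between -1.08 and -0.89, and in unspliced UMIs 41 of 41 of its genes were lower with a median of -1.05. In blood 36 of 40 were lower, with a median of -0.76 beside 0.25 over all genes. The class median of Spry1, -0.99, lay within that range. The rule for the run was chosen after its values had been seen. RNA counts do not measure DNA, and the copy number of the stretch in the clone was not tested. A property of the clone and an effect of Gata1 on Spry1 or Fgf2 cannot be told apart.

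**Figure D2:**
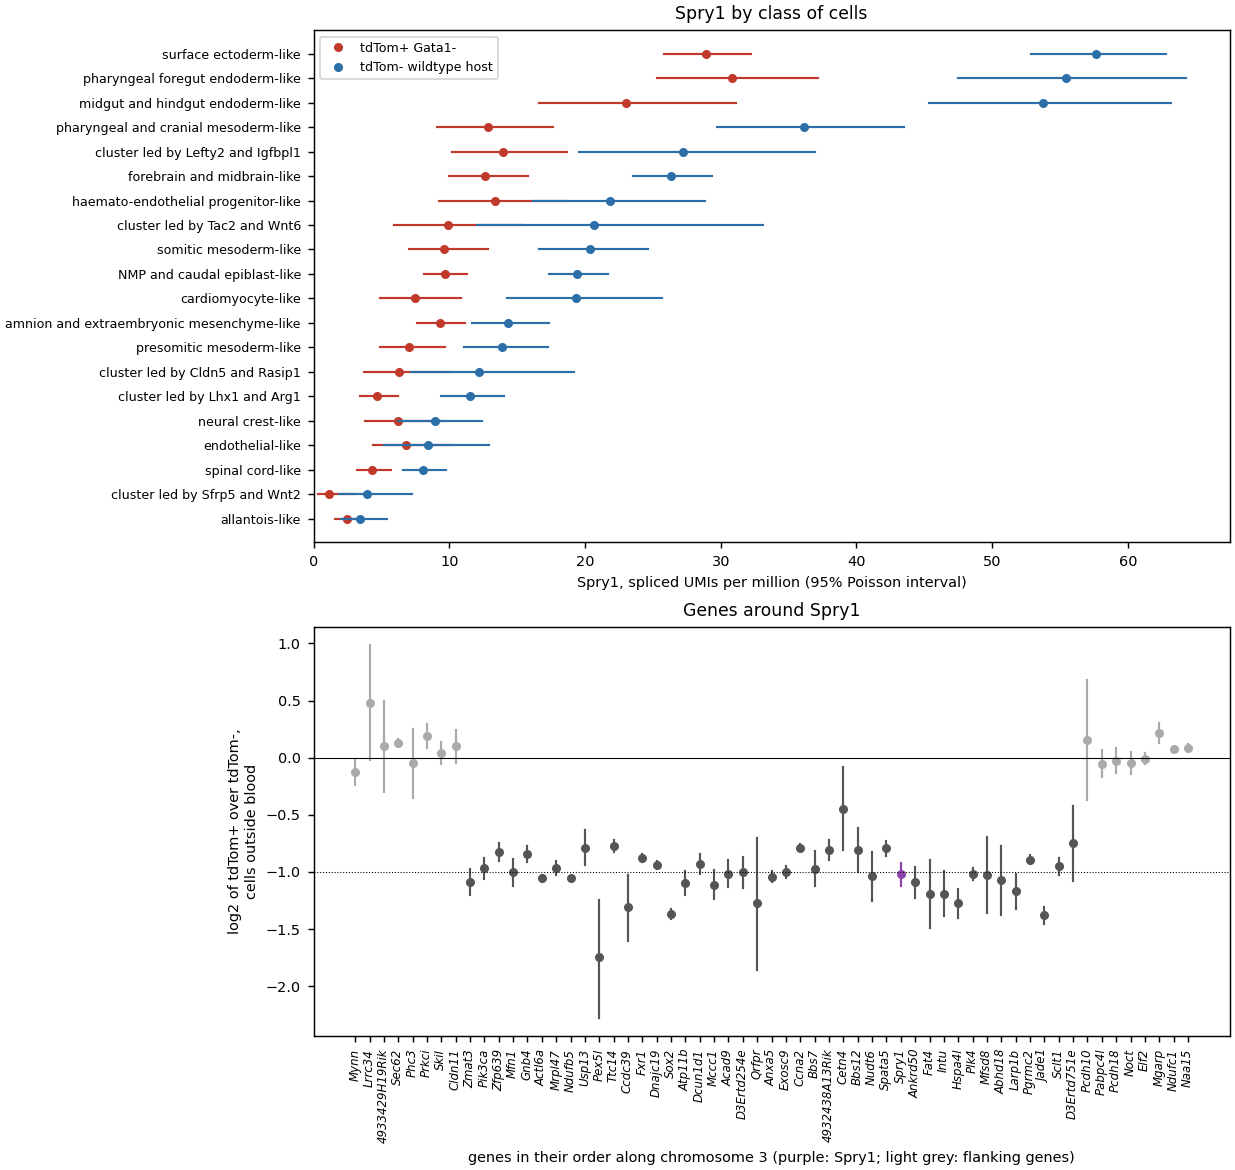
Top, Spry1 in CPM of spliced UMIs for the 20 shared classes, with tdTom+ in red, tdTom- in blue and bars for 95% Poisson intervals. Bottom, log2 of tdTom+ over tdTom- outside blood for genes in their order along chromosome 3, with 95% intervals, where the 43 genes of the run lie between -1.75 and -0.44 around the dotted line at -1, Spry1 is purple at -1.02, and the flanking genes in light grey lie near 0.

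Blood cells were where FGF ligands differed most. The fractions held 1625 tdTom+ and 1480 tdTom- blood cells, at different stages: 1415 of the tdTom+ cells were blood progenitor-like and 1393 of the tdTom- cells erythroid-like, and haemoglobin genes made up 1.72% and 9.51% of their UMIs. Fgf3 was at 105 CPM in tdTom+ blood and 7.98 in tdTom-, a log2 of 3.72 [3.53 to 3.92]. Fgf15 was at 63.4 and 1.78 CPM, 5.15 [4.75 to 5.58]. Fgf10 held 901 UMIs in tdTom+ and 43 in tdTom-, 4.09 [3.65 to 4.57]. In tdTom+, blood held more Fgf3 per UMI than the presomitic mesoderm-like cells of either fraction, and its Fgf15 came next after spinal cord-like cells.

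Of 18 members tested in blood 7 were called, 5 higher and 2 lower, against 18.6% of all genes. The other higher ones were Fgfr1 at 5.68 and 2.59 CPM (1.13 [0.74 to 1.54]) and Dusp6 at 4.03 and 1.26 CPM (1.68 [1.14 to 2.25]). Neither was as firm as the ligands. With a median of ratios scaling Fgfr1 lay at 0.92 and was not called, and without the myeloid-like cells, of which tdTom+ held 205 and tdTom- 28, Dusp6 lay at 0.43 and was not called. Fgfr2 was lower, with 18 UMIs in tdTom+ and 48 in tdTom- (-1.72 [-2.58 to -0.91]), and Fgf2 with 16 and 27 (-1.06 [-2.05 to -0.11]), which was not called without the myeloid-like cells (-0.91 [-1.90 to 0.036]). Fgfr2 was at 0.51 and 1.68 CPM in blood, beside 21.8 and 24.4 outside. With the level of non-blood cells subtracted as free RNA, only 4 members could be tested, and Fgfr1, Fgfr2 and Dusp6 were not among them. Fgf8, with 78 and 46 UMIs, lay at 0.46 [-0.08 to 1.02], and Fgf13 at 9.32 and 9.69 CPM. The median of the members was -0.01, beside 0.25 over all genes tested in blood.

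The ligand levels were seen in every tdTom+ blood progenitor-like sub-cluster. Over the 4 sub-clusters Fgf3 ranged from 94.9 to 165 CPM, Fgf15 from 41.1 to 76.5 and Fgf10 from 22.1 to 33.5, and the sub-cluster with the highest Fgf3 had the lowest Fgf15. In tdTom- the erythroid-like sub-cluster with Gata1 among its leading genes, taken as the early one, held 17.2 CPM of Fgf3, a small one of 48 cells held 13.3, and the other 3 held 3.04 to 3.58. Its Fgf15 was at 2.67 CPM and its Fgf10 at 2.53. Host megakaryocyte-like cells (53 cells) held 16.6 CPM of Fgf3, and haemato-endothelial progenitor-like cells of sub-cluster 8 held 14.4 CPM in tdTom+ and 9.87 in tdTom-, within each other's intervals.

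Stage was matched in part by assigning each tdTom+ blood cell to whichever host sub-cluster supplied most of its 15 neighbours. A difference remained after this, since Hbb-bh1, an embryonic globin, was at 4176 to 11733 CPM in the tdTom+ blood progenitor-like sub-clusters and at 19113 in the early erythroid-like host sub-cluster, and its part in the folds was not tested. Against the early erythroid-like sub-cluster (1309 and 349 cells), 6 of 13 members were called against 11.8% of all genes, with Fgf3 at 115 and 17.2 CPM (2.75 [2.49 to 3.02]), Fgf15 at 74.5 and 2.67 (4.80 [4.16 to 5.54]) and Fgf10 at 28.2 and 2.53 (3.48 [2.81 to 4.24]). Fgf2, Fgfr2 and Spry1 were lower, while Fgfr1, at 0.67 [-0.03 to 1.45], was not called. Against the megakaryocyte-like sub-cluster (88 and 53 cells), 3 of 5 members were called against 7.98% of all genes: Fgf3 at 147 and 16.6 CPM (3.15 [2.42 to 3.98]), Fgf10 at 23.6 and 5.18 CPM (2.19 [0.85 to 3.88]) and, lower, Spry1. Fgf15 held 14 UMIs there against 0, too few for a call. In matched myeloid-like cells (207 and 28) Fgf3 was at 18.6 and 17.7 CPM, a log2 of 0.07 [-0.98 to 1.34].

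**Figure D3:**
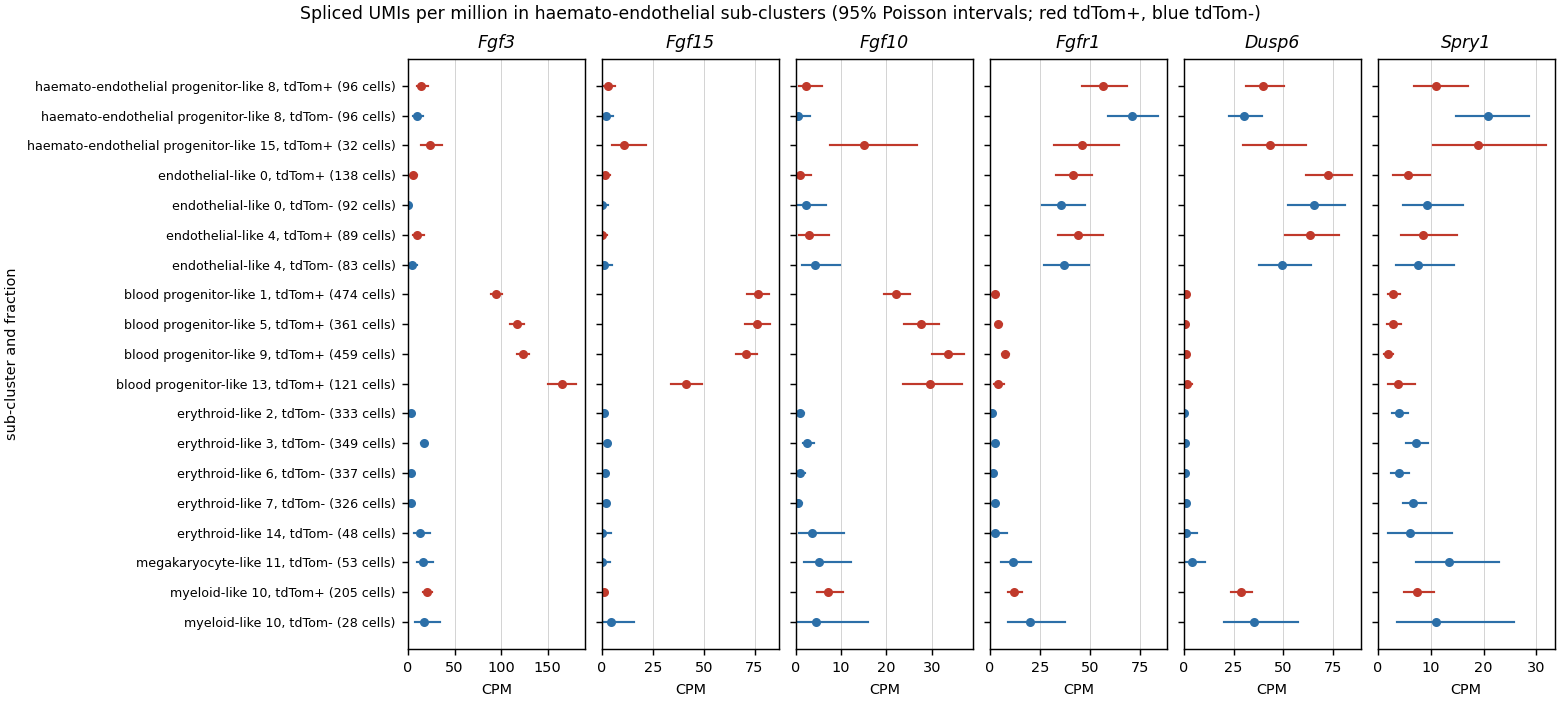
CPM of spliced UMIs for 6 members in each haemato-endothelial sub-cluster with at least 25 cells in a fraction, with 95% Poisson intervals, tdTom+ in red and tdTom- in blue. The 4 tdTom+ blood progenitor-like sub-clusters stand apart for Fgf3 (94.9 to 165 CPM), Fgf15 and Fgf10, while Dusp6 is highest in the endothelial-like and haemato-endothelial rows of both fractions.

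The transcripts were spread over many cells. With each cell thinned to 5000 UMIs, Fgf3 was seen in 36.3% of 1404 tdTom+ blood progenitor-like cells (Clopper-Pearson interval 33.7 to 38.8), Fgf15 in 23.9% (21.7 to 26.2) and Fgf10 in 13.5% (11.8 to 15.4), and at least 1 of the 3 in 57.9%. Unthinned, the shares were 68.2%, 54.4% and 41.7%. In tdTom- erythroid-like cells the thinned shares were 3.01%, 0.44% and 0.51%. Cardiomyocyte-like cells were taken as a guide to free RNA in droplets, on the assumption that they lack Fgf3 expression, which was not tested. They had a UMI of Fgf3 in 0.50% of tdTom+ and 0.69% of tdTom- cells after thinning. Unthinned these were 1.93% and 2.01%, at median depths of 16917 and 16006 UMIs against 21564 in the blood progenitor-like and 19083 in the erythroid-like cells. For Fgf15 the cardiomyocyte-like shares were 1.49% and 0%, and for Fgf10 3.47% and 2.07%, but this class held Fgf10 transcripts at levels that differed between the fractions and is no measure of free RNA for that gene. For Fgf15 the thinned erythroid-like share lay between those of the cardiomyocyte-like cells, and unthinned it was 3.02% beside 2.90% in tdTom+ and 0% in tdTom- cardiomyocyte-like cells. For Fgf3 the thinned erythroid-like interval (2.17 to 4.06) overlapped that of the tdTom- cardiomyocyte-like cells (0.017 to 3.78), which rests on 1 of 145 cells, while unthinned the erythroid-like share was 7.90%, and in the early erythroid-like sub-cluster 6.05% of 347 thinned cells had a UMI of Fgf3. Fgf15 was found in 24.8% of the blood progenitor-like cells with Fgf3 and in 23.4% of those without.

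Receptor, feedback and target transcripts were low in these cells. In tdTom+ blood progenitor-like cells the secreted ligands summed to 220 CPM, close to the 209 of forebrain and midbrain-like cells, whereas the 4 receptors summed to 5.86 CPM and the 6 feedback and target genes to 5.93. The host erythroid-like cells had 14.1 CPM of ligands, 4.17 of receptors and 8.38 of feedback genes. In the other tdTom+ classes with at least 50 cells the receptors summed to 15.3 CPM or more and the feedback genes to 30.1 or more. The data do not measure protein or signalling, and whether the ligands act on other cells was not tested.

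**Figure D4:**
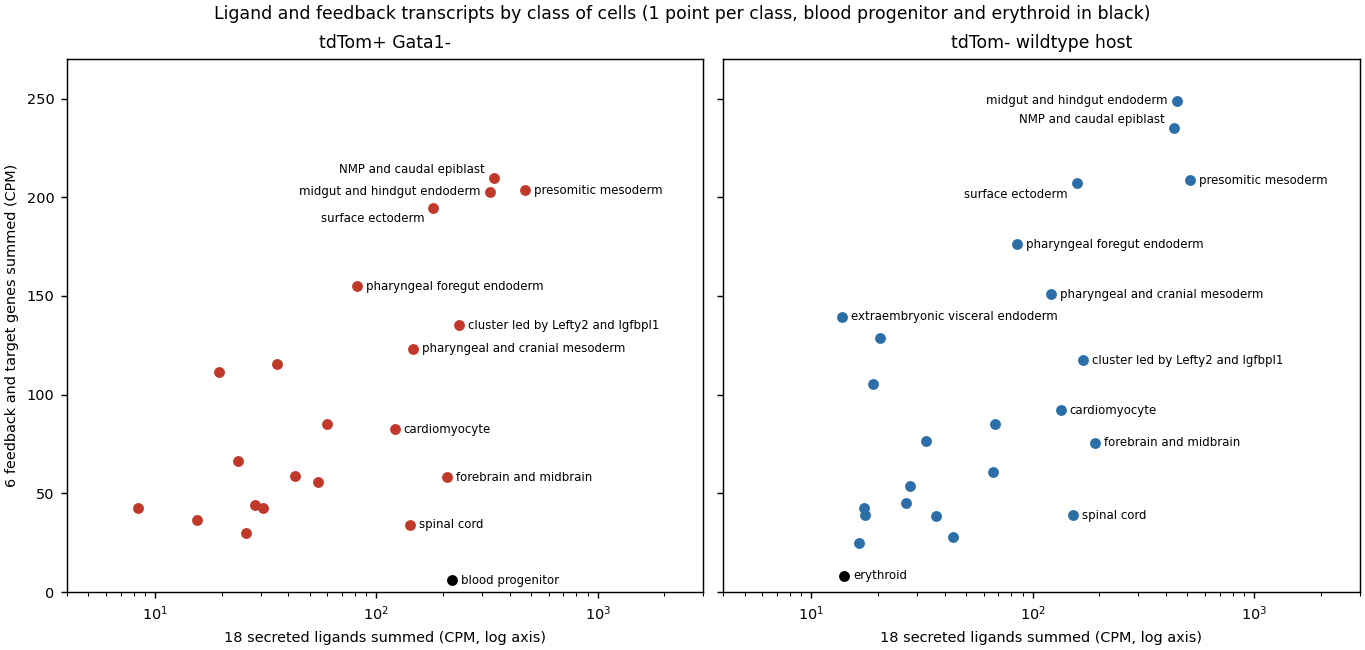
Sum of the 18 secreted ligands (CPM, log axis) against the sum of the 6 feedback and target genes (CPM) for each class with at least 50 cells, 1 panel per fraction. Classes with many ligand transcripts mostly have many feedback transcripts, up to 249 CPM in tdTom- midgut and hindgut endoderm-like cells, while the tdTom+ blood progenitor-like cells, in black, lie at 220 CPM of ligands and 5.93 of feedback genes.

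The genomic setting of the blood ligands was examined next. Fgf3 (144838083 to 144844436) and Fgf15 (144896531 to 144900953) lie near each other on chromosome 7, with Fgf4 between them, while Fgf10 is on chromosome 13 (118669791 to 118792115). In blood Fgf4 held 7 UMIs in tdTom+ and 0 in tdTom-. Of the other genes within 300 kb, Gm26793, an antisense gene that overlaps Fgf15 and cannot be parted from it if the counting ignored strand, lay at 3.64 [2.73 to 4.73], Ccnd1, a cyclin, at 0.56 [0.29 to 0.84], Fadd, an apoptosis adaptor, at 0.11 [-0.05 to 0.28] and Ano1, a chloride channel, at -2.80 [-3.52 to -2.13]. Unspliced UMIs of Fgf10 in blood were 2278 and 169 (3.45 [3.23 to 3.69]), those of Fgf15 were 57 and 2 (4.53 [2.61 to 7.61]), and those of Fgf3 were 19 and 0.

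Promoter sequence is shown for the blood ligands Fgf3 and Fgf10, and for Dusp6 and Etv5 as genes that read out the pathway. The sequences are the 250 bases before a RefSeq start (GRCm38.p6), given on the gene's strand. RefSeq windows were matched for 23 of the 32 members, with 31 windows in all. Fgf15, Fgf8, Fgf16, Fgf17, Fgf20, Fgf1, Fgfr1, Spry4 and Etv4 had no matched window in the promoter set used here, which does not speak to RefSeq itself. Capitals mark AGATAA, the core of a GATA factor motif, or TGAATG, the core bound by the repressor Capicua, on either strand; the motifs do not overlap each other here.
Fgf3, chr7:144838362-144838611, + strand: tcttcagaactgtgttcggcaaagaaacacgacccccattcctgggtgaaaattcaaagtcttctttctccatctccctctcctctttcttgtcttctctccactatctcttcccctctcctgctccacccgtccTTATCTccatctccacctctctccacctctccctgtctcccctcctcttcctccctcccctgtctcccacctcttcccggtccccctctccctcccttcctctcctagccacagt
Fgf10, chr13:118714449-118714698, + strand: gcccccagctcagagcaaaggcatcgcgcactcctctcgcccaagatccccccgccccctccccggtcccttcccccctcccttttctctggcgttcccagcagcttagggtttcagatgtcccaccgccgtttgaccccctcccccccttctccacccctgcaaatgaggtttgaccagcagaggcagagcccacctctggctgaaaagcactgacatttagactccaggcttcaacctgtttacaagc
Dusp6, chr10:99262981-99263230, + strand: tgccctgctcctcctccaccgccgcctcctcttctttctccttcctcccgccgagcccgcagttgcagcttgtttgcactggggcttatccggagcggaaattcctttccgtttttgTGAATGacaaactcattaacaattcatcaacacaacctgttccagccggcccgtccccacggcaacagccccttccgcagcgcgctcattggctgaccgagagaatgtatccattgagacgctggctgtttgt
Etv5, chr16:22438369-22438618, - strand: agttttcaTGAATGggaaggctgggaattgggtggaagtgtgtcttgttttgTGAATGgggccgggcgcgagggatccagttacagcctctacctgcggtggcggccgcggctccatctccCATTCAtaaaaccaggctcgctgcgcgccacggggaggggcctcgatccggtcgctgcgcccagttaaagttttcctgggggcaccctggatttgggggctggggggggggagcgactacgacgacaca

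The Fgf3 window held 1 AGATAA on the opposite strand, first base at -115 from the start, and the Fgf10 window held none. AGATAA was found in 9.99% of all 32851 promoter windows of the same length and in 3 of the 31 member windows. TGAATG stood at -133 in Dusp6 and at -242, -198 and -129 in the Etv5 window printed. The other Etv5 window, before a RefSeq start farther upstream, held none, and neither did the Spry1 and Spry2 windows, which are not printed. The first bases after the start were found in an annotated Etv5 transcript for that other window, but not for the Etv5 window printed. TGAATG was found in 10.9% of all windows and 5 of the 31. A match is a description of the letters and not a site, and the letters were chosen after the sequences had been seen. The Fgf3, Fgf10 and Etv5 windows printed lie inside the longer gene models of the GENCODE annotation from which positions were taken here. The authors' annotation used for counting was not examined.

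Other genes of the pathway were taken from a list of 70 present in the matrices. Outside blood, 0 of 68 tested were called higher and 2 lower, against 3.7% of all genes in either direction. Among the lower was Fgfbp1, which releases stored ligand from the matrix (144 and 396 UMIs, a log2 of -1.53). In blood 9 of 58 were called higher and 2 lower. The higher ones with the largest differences were Rps6ka1, a kinase downstream of ERK, at 32.9 and 4.55 CPM (2.86 [2.59 to 3.13]), Elk3, an ETS factor phosphorylated by ERK (2.77 [2.28 to 3.30]), Dusp5, a nuclear ERK phosphatase (2.45), Ier3, an early response gene (2.02 [1.71 to 2.35]), and Hs2st1, a heparan sulphate sulphotransferase (1.40). Fgfrl1, a receptor without a kinase domain, was lower at 1.48 and 4.37 CPM (-1.57 [-2.06 to -1.09]). The share called, with 12 feedback inhibitors other than the members giving 1 higher and 1 lower of 10 tested, is to be read beside 18.6% of all genes in blood, and the median of the list there was 0.29 beside 0.25.

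The unspliced share differed widely between members. Over all kept cells, 33.4% of the members' UMIs in tdTom+ and 35.6% in tdTom- were unspliced, beside 13.1% and 13.4% over all genes. In blood the members' share was 26.8% (26.0 to 27.6) in tdTom+ and 36.3% (34.1 to 38.6) in tdTom-, beside 11.3% and 9.90% over all genes. This pooled share depends on the mix of members. Fgf3 and Fgf15, both mostly spliced, held 3709 and 2231 spliced UMIs in tdTom+ blood, and 228 and 51 in tdTom-. By gene, the blood shares were 34.8% and 37.8% for Fgf13, 37.9% and 39.8% for Fgfr1, and 71.7% and 79.7% for Fgf10. Fgf14, of the intracellular branch, was unspliced in 98.6% and 98.9% of its UMIs and Fgf20 in 98.7% and 98.6%, Fgf10 in 71.0% and 72.3%, Fgfr2 in 68.0% and 69.3%, and Spry2 in 43.6% and 45.8%. Fgf3 (1.11% and 1.65%), Fgf8 (1.39% and 1.66%) and Dusp6 (2.75% and 2.99%) were nearly all spliced. Fgf14 showed different places in its layers. Its unspliced UMIs were most frequent in spinal cord-like cells, at 185 in tdTom+ and 252 in tdTom- when scaled like CPM to the spliced total, while its few spliced UMIs led in midgut and hindgut endoderm-like cells at 14.3 and 6.63 CPM. Where along a gene the unspliced reads lay was not measured here.

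**Figure D5:**
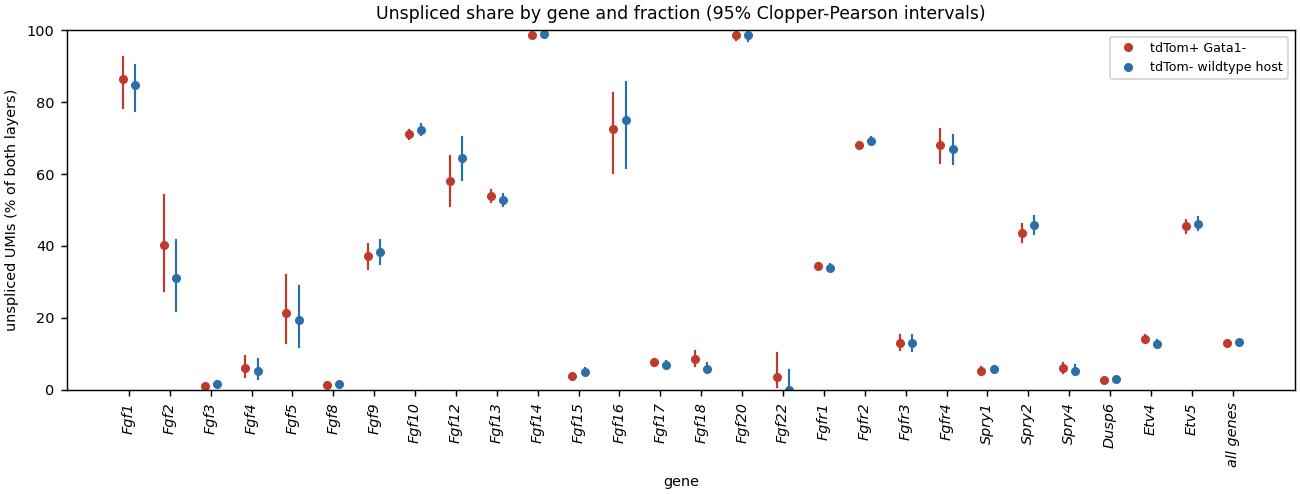
Unspliced UMIs as a percent of both layers over all kept cells for members with at least 100 UMIs of both layers, and for all genes at the right, with 95% Clopper-Pearson intervals, tdTom+ in red and tdTom- in blue. The share runs from 0% for Fgf22 in tdTom-, with 0 unspliced and 64 spliced UMIs, to 98.9% for Fgf14 in tdTom-. This span is wider than that between the fractions within any gene shown.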

How the data were processed

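Per the study's methods and labels, the authors mapped reads to mm10 with Cell Ranger 3.0.2 and GRCm38 gene models. They kept barcodes that differed from ambient RNA (emptyDrops), removed those of low complexity by mixture models of total and mitochondrial counts, and ran velocyto on the alignments. The deposited values are raw UMI counts per cell and gene, in a spliced and an unspliced layer, and the deposited quality metrics give a percent of mitochondrial UMIs per cell, with medians of 2.07 and 2.08. All counts were whole. The matrices hold more barcodes than the cells the study counted as passing quality control with a cell type.

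Doublets were called per library with Scrublet in scanpy 1.11.5 (4.20% and 5.60% of cells) and 1 cluster with over 50% called was left out with them. Cells were clustered on 1861 variable genes with 50 components, 20 neighbours and a Leiden resolution of 1.5, and haemato-endothelial cells again on 1903 genes at a resolution of 1. The members, the other pathway genes and sex-linked genes, 108 in all, were left out. Names needed 3 markers raised 2-fold; this naming rule and the motif letters were revised after the data had been seen. The members and gene lists were chosen with earlier results of these data known. Names rebuilt from counts can differ from the study's.

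UMIs were summed per class and fraction, and the log2 fold has an exact conditional interval. There is 1 library per group, so no p-value is given. Members with 500 or more UMIs are described by class, the others by counts and, from 50 UMIs, by their leading class; of the other pathway genes up to 5 per direction with at least 100 UMIs and the largest fold are named. Thinning to 5000 UMIs left out 151 tdTom+ and 372 tdTom- cells. Scripts for the intervals were tested on counts simulated with known folds. Alternatives covered the layer, scaling, minimum counts, free RNA, resolution and thinning.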

Additional observations from a re-analysis of the deposited data

Results flagged for a closer look

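For 4 members called in blood the difference between fractions had the opposite sign in the pooled cells outside blood, with intervals that did not overlap. Members not called in blood, such as Fgf8 (0.46 and -0.35), could also differ in sign. Fgf3 lay at a log2 of 3.72 in blood and -0.17 outside, Fgf10 at 4.09 and -0.08, Fgf15 at 5.15 and -0.29, and Fgfr1 at 1.13 and -0.09. The interval of Fgf10 outside blood, -0.21 to 0.06, spans 0. The sign outside blood depended on how classes were weighted. With equal weight for each of the 20 shared classes, which hold no blood, Fgf3 lay at 0.15 [0.01 to 0.29]. Fgf10 then lay at 0.09 [-0.08 to 0.27] and Fgf15 at 0.08 [-0.02 to 0.18]. Fgfr1 was lower in 16 of 20 classes tested. With 1 library per fraction the difference between blood and other cells was not tested, the values outside blood were all under 2-fold, and the blood cells of the fractions stood at different stages.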

How the results depend on the processing

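No paired analysis was possible because there is 1 library per group, so the labels' replicate numbers pair nothing and leaving out a library leaves no comparison. No called single-gene fold changed its direction among the alternatives to its own comparison. The signs of Fgf3, Fgf10 and Fgf15 outside blood, none of them called there, did turn with equal weight for each class, as given above. With free RNA subtracted Spry1 was lower in 16 of 18 classes instead of 19 of 19. Over all kept cells 3 of 28 members were called, against 5.72% of all genes. With equal weight for every class, which covers the 20 shared classes and so no blood, 1 of 28 was (Spry1), against 2.81%. Fgf2 also lost its call with unspliced UMIs added, with all deposited barcodes and with at least 100 UMIs. Outside blood, a comparison itself added after seeing the data, 2 of 28 were called, against 3.70% of all genes. With spliced plus unspliced UMIs 1 of 31 was (Spry1), against 3.41%. With a median of ratios 1 of 28 was (Fgf2, since Spry1 then fell just short of 2-fold), against 3.51%. Both alternatives were added likewise. Within classes 17 pairs were called, and 6 of 149 with at least 100 UMIs (0.721% of all pairs), 26 of 274 at the lower resolution (2.63%) and 5 of 183 after thinning to 5000 UMIs (2.30%), a share near that of all pairs. With free RNA subtracted 21 of 245 were called, against 22.7% of all pairs. The profile subtracted rested on different blood classes in the fractions, so this share is no background for the members. In blood 7 members were called, and 4 after subtracting the level of non-blood cells as free RNA (Fgf2, Fgf3, Fgf10 and Fgf15). Only 4 members were then testable, and 59.6% of all genes were called, since it takes the whole level of the other cells away. Without myeloid-like cells, also added after seeing the data, 6 of 18 were called, against 15.8% of all genes. Dusp6 (0.43) and Fgf2 then fell out of the calls and Spry1 came in, and with a median of ratios Spry1 took the place of Fgfr1. Restricted to a class were 8 members, and 5 of 15 after thinning (8.74% of all genes), when Fgf4, Fgf9, Fgf18 and Fgfr3 were no longer in the set and Fgf10 was. At the lower resolution the count was also 8, but Fgf3 and Fgfr3 dropped out and Fgfr2 and Spry4 came in, and Fgfr3 was not restricted at the higher resolution, at 8 times the median or after thinning either. The unspliced share of the members was 34.5%, and 35.1% outside blood. The other 25 such values stayed within 1.5 times or within their interval, as did 115 of 125 single-gene values. Depth limits the members with under 50 UMIs, and 1 library per group limits every difference.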
